A study of Mus musculus with 28 samples.

Results

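The regions described here are stretches of chromatin that the authors listed as opened in Yap active lung epithelial cells and that their annotation places between genes. They are 1585 of 6017 opened regions (26.3%), chosen by the annotation alone, beside 1780 promoter regions, 1968 intronic regions and 684 of other kinds. ATAC-seq, which cuts accessible DNA with a transposase, was run on 3 libraries of Stk3flox/flox/Stk4flox/flox mice with SftpcCreert2 (Yap active) and 3 of Stk3flox/flox/Stk4flox/flox mice without it (controls), and RNA-seq on 6 and 4 libraries of the same genotypes. A second line, Yapflox/flox with SftpcCreert2 (Yap deleted, 5 RNA and 2 ATAC libraries) and without it (controls, 4 RNA and 1 ATAC library), is set beside it. All mice were induced at postnatal day 3 and collected at postnatal day 14, and each group held Epcam+ lung cells left after removal of blood, endothelial and mesenchymal cells. The Sftpc promoter drives the Cre in alveolar type 2 (AT2) cells. Other epithelial cells of the sort may keep the floxed genes, unless they arose from such cells after induction. No label ties a library to a separate mouse, so p-values measure only the spread between these libraries, which may be technical.

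Stk3 and Stk4 encode MST2 and MST1, the Hippo kinases that restrain Yap. When they are lost Yap is meant to stay in the nucleus, where it binds DNA through TEAD factors, and TEAD sites in other tissues lie largely in distal enhancers, often beside sites of AP-1 factors such as Jun. Intergenic accessible regions are the usual place of such enhancers, although a region near a start site can also be an unannotated promoter. In the alveolus AT2 cells make surfactant and can give rise to the flat AT1 cells of gas exchange, and factors such as Foxa2, Nkx2-1, Klf5 and the NFI family direct these states.

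The RNA libraries of the Yap active line, labelled AT2, held 29250 to 117400 CPM (counts scaled to library size) of 5 summed AT2 markers, with none of the 5 at 0 in any library. They also held 1369 to 5454 CPM of 5 AT1 markers, 2975 to 16180 CPM of 3 airway markers and 889 to 6085 CPM of 5 mesenchymal markers. Endothelial markers summed to 17.3 to 258 CPM and leukocyte markers to 29.9 to 76.2 CPM, with 1 of 5 leukocyte markers at 0 in at least 1 library, and both erythroid markers were at 0 throughout. In the Yap deleted line endothelial markers summed to 38.5 to 100.8 CPM in the deleted libraries and 99.5 to 1576 CPM in the controls, and leukocyte markers to 41.1 to 78.3 and 113.6 to 400.7 CPM. The libraries of the Yap active line fell into 2 sets of like profile, active 2 to 6 with control 4, and active 1 with controls 1 to 3 (correlations of 0.876 to 0.937 within the sets and 0.691 to 0.879 between them). CreERT2 is a fusion of Cre with part of the estrogen receptor. Counts of Esr1 reached 211 to 335 CPM in 5 Yap active libraries, and the library labelled active 1 had 1.97 CPM. Among the controls the library labelled control 2 had 160 CPM and the rest 0.964 to 3.20 CPM. Stk3, the deleted gene, lay at 49.5 CPM in the library labelled active 1 and at 34.0 CPM in the library labelled control 4, where the other active libraries held 30.6 to 35.4 CPM and the other controls 50.2 to 54.6 CPM. The libraries labelled active 1, control 2 and control 4 thus go against their labels in 1 or more of these values, and whether any were exchanged was not tested. All 3 were kept as labelled, and results are also given without them where that moves them. The 2 sets were found in these same profiles and nearly coincide with the genotype groups. In this line a fit with the set as a covariate compares active 2 to 6 with control 4, and active 1 with controls 1 to 3. Its genotype effect thus leans on the libraries labelled active 1 and control 4, and such a fit cannot cleanly separate set from genotype.

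The intergenic regions were 502 to 5874 bases wide with a median of 946 bases, against 1347.5 bases for opened promoter regions and 978 for intronic ones. Their scores, given by the authors on a scale that is not stated, ran from 9.28 to 453.6 with a median of 29.2. The median score was 77.6 for promoter regions and 31.6 for intronic regions of the same list. The centre of an intergenic region lay a median of 41.1 kb from the nearest gene's start (quartiles 15.7 and 104.6 kb), and the farthest lay 1028 kb away. In 1047 of 1585 cases (66.1%) the region was upstream of that start. The split from promoters is one of distance, with the closest intergenic region centred 1008 bases from a start and the farthest promoter region 985 bases.

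**Figure D1:**
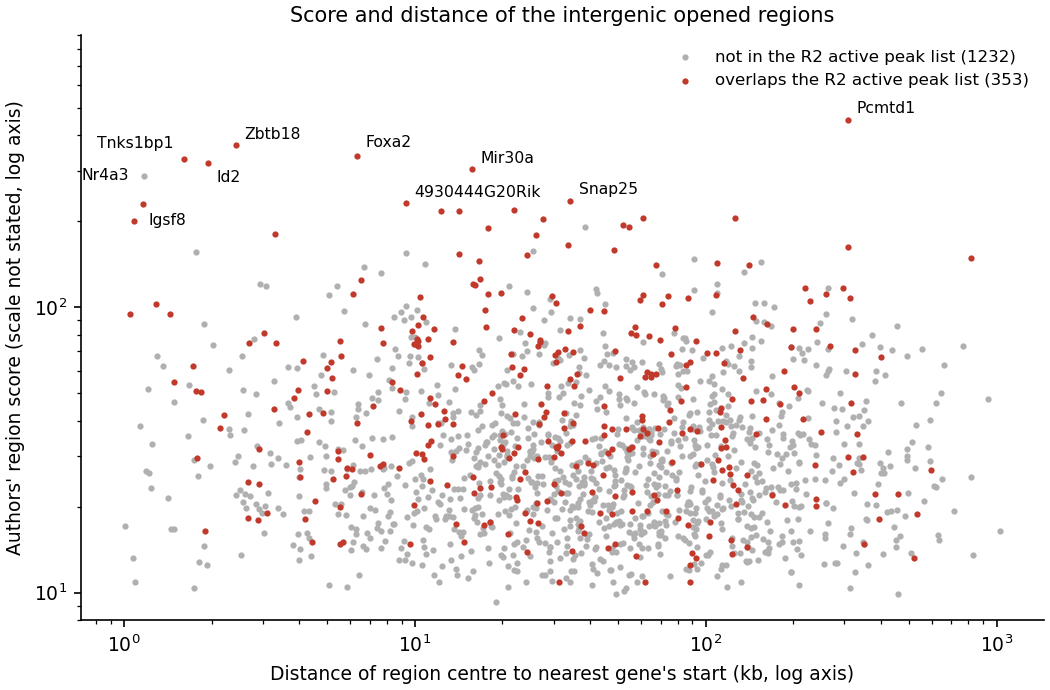
Score of each of the 1585 intergenic opened regions (log axis, scale not stated) against the distance of its centre from the nearest gene's start (kb, log axis), one point per region. Red points mark the 353 regions that overlap a peak of the R2 Yap active list, and the 10 highest-scoring regions are labelled by nearest gene. The 10 labelled regions lie between 1.16 kb (Igsf8) and 309 kb (Pcmtd1) from a start.

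The region with the highest score, 453.6, was chr1:7396837-7399098, whose listed gene Pcmtd1 starts 309 kb away. The second, at 368.8, was chr1:177441111-177443366, centred 2.42 kb upstream of the listed start of Zbtb18, a transcriptional repressor. The third, at 339.6, lay 6.33 kb downstream of the start of Foxa2 at chr2:148037481-148040782. Foxa2 encodes a forkhead pioneer factor of lung endoderm, and the region holds the start of the lncRNA gene 9030622O22Rik. Then followed regions near Tnks1bp1 (331.0), Id2 (320.0), Mir30a (305.0), Nr4a3 (287.3), Snap25 (236.1), 4930444G20Rik (231.6) and Igsf8 (229.1). Of these 10 regions, those nearest Id2, Tnks1bp1, Nr4a3 and Igsf8 were centred 1.95, 1.61, 1.17 and 1.16 kb upstream of their gene, just past the promoter limit.

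Wide regions of this kind can reach a start although their centre lies outside the promoter limit, and the annotation used can miss starts that RefSeq holds. Of the 1585 regions, 105 (6.63%) contained the start of at least 1 RefSeq gene of build GRCm38.p6, the build on which the listed distances were matched. These were the starts of 111 genes, 41 protein-coding and 70 lncRNA genes, and in 25 cases the start carried the symbol of the listed gene, which leaves out Ccn1, listed under its older symbol Cyr61. In 97 of the 105 regions a start lay within 1 kb of the region's centre. Starts were found in 10.2% of the higher-scoring 50% of regions and in 3.03% of the lower-scoring 50%, and in 17 of the 50 highest-scoring regions. The region listed for Pcmtd1 held the start of the lncRNA gene Gm26901, 129 bases from its centre. The region listed for Zmat3, 31.6 kb away, held the start of Pik3ca, which encodes the catalytic subunit of a lipid kinase, 150 bases from its centre.

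The stretches below are the 250 bases before the start of the protein-coding genes whose start and window lie within an intergenic opened region and whose window holds the TEAD core GGAATG or its reverse complement CATTCC, followed by Pik3ca and Id2 for comparison. They come from RefSeq, GRCm38.p6, and run 5′ to 3′ on the gene's own strand, with the TEAD cores and the AP-1 motif TGANTCA in capitals.
Ccn1 (Cyr61), chr3:145649986-145650235, minus strand: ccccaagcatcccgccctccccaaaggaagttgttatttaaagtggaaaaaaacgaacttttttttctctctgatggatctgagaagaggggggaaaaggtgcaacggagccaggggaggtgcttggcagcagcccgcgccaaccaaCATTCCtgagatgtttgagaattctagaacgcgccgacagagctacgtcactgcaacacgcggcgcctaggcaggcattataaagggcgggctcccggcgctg
Nr4a3, chr4:48045055-48045304, plus strand: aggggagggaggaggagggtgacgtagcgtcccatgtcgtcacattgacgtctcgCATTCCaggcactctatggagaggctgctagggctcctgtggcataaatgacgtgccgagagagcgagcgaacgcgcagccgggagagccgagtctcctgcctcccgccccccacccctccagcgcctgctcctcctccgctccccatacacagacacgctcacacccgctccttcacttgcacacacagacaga
Crb3, chr17:57061951-57062200, plus strand: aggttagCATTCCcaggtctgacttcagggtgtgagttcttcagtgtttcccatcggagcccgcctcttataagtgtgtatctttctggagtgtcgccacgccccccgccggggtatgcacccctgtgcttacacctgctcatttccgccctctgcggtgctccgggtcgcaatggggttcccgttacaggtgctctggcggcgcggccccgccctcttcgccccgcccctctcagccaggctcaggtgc
Slc25a23, chr17:57059864-57060113, minus strand: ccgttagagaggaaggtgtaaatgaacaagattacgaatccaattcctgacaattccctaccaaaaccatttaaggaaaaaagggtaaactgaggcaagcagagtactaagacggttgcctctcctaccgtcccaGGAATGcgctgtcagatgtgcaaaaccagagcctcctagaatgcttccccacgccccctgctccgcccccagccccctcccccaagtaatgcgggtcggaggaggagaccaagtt
Vgll4, chr6:114969204-114969453, minus strand: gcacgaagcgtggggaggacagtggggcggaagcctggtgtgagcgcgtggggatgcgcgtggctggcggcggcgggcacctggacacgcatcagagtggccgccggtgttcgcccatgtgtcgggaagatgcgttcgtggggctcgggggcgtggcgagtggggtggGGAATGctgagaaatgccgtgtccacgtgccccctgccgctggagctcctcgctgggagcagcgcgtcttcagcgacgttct
Ckap5, chr2:91526512-91526761, plus strand: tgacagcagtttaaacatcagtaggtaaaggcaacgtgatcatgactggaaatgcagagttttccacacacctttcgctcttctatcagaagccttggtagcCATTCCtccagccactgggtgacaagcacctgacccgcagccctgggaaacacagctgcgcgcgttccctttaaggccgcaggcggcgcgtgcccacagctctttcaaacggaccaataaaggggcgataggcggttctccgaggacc
Pik3ca, chr3:32396815-32397064, plus strand: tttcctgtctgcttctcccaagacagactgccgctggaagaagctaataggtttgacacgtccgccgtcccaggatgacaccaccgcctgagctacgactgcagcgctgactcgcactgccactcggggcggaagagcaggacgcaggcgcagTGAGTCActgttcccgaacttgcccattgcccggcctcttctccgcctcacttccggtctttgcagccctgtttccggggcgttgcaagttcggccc
Id2, chr12:25096093-25096342, minus strand: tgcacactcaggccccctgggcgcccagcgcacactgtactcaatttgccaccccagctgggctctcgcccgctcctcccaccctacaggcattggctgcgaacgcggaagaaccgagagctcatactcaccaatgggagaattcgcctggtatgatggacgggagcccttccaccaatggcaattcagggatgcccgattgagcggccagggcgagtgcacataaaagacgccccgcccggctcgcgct
Ccn1 and Nr4a3 are the early-response genes of the set, Ccn1 being a standard Yap and TEAD target that the count table lists as Cyr61. Crb3 encodes an apical polarity protein upstream of Hippo signalling and Vgll4 a TEAD-binding protein that competes with Yap. Slc25a23 encodes a mitochondrial carrier and Ckap5 a microtubule polymerase. Crb3 and Slc25a23 start on opposite strands of 1 region, chr17:57058695-57063188, so their windows share that region. The first base of the core lay 103 bases before the start in Ccn1, 195 in Nr4a3, 243 in Crb3, 115 in Slc25a23, 82 in Vgll4 and 148 in Ckap5. The Pik3ca window held an AP-1 motif 97 bases before the start, and that of Id2 held neither.

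Across the 87 whole windows of 300 bases (250 before to 50 after the start) inside these regions, 16 held the TEAD core on either strand (18.4%), against 14.6% of 27025 windows of all RefSeq genes, 1 window a gene. The windows of Ccn1 and of the lncRNA gene Gm17501 overlap and hold the same core, which is counted for both. Among protein-coding genes 6 of 35 windows held the core (17.1%), against 13.4% of 17491. The AP-1 motif occurred in 6.90% against 7.93% of all windows, the NFI half-site TTGGCA in 14.9% against 14.4% and the KLF motif GGGNGTGG in 18.4% against 17.6%. The forkhead motif TGTTTAC occurred in 6 windows (6.90%) against 3.55% of all, and the ETS motif CCGGAAG in 5.75% against 9.12%. NKX2-1 letters (CACTNNAG) were in 10.3% against 15.9%, C/EBP letters (TTGCNNAA) in 12.6% against 10.8% and RUNX letters (TGTGGTT) in 5.75% against 5.37%. The CTCF motif was in 2.30% against 2.41%. Windows in the regions held a median of 56.3% G and C against 52.7%, so base composition differs between the windows compared. These shares describe start windows only, and regions without a start were not searched.

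By edgeR none of the protein-coding genes tested whose own start lay in a region passed the adjusted threshold in RNA, and by DESeq2 Slco4a1 did (adjusted p = 0.0145). Of 41 protein-coding genes 33 could be tested, 18 higher and 15 lower in Yap active libraries, with a median log2 fold change of 0.05. At an unadjusted p under 0.05, Slco4a1 and Crybg1 (Aim1 in the count table) were higher and Srpk2 was lower (1.24, 0.47 and −0.49), where 6.65% of all genes were higher and 5.98% lower at that p. Crb3 had a log2 fold change of 0.70 ± 0.33 (SE, adjusted p = 0.366 by edgeR), Slc25a23 of 0.41 ± 0.22 and Pik3ca of −0.27 ± 0.13. For Ckap5 and Vgll4 the values were 0.05 ± 0.12 and 0.19 ± 0.16. These 8 genes were picked after their windows or values were seen.

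Repeats and CpG islands divide the intergenic regions further. The centre of 108 regions (6.81%) lay in a CpG island, against 1 of 497 intergenic regions that closed in the same line (0.201%) and 327 of 1968 opened intronic regions (16.6%). Regions centred in a CpG island had a median score of 61.1, where regions outside repeats and islands had 28.1, and 28 of the 108 (25.9%) held a RefSeq start. Repeats held the centre of 254 intergenic regions (16.0%), against 33.8% of closed intergenic regions and 10.01% of opened intronic ones. LTR elements, remnants of retroviruses, made up 96 of the 254, and 46 of these were of the ERVK family. LINE elements held 44 centres, SINE elements 38 and simple repeats 32.

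A second pair of peak lists comes from libraries to which the opened list is not tied. The labels tie the opened list to Yap active ATAC libraries 2 and 3, and the file's own entries show that both were set against 1 control library. The labels tie the R2 lists to Yap active ATAC library 1 and to control ATAC libraries 1 and 3. No source says against which libraries or with which cutoff these peaks were called, which limits what an overlap with either list means. Of the 1585 intergenic regions, 353 overlapped a peak of the R2 active list by at least 1 base (22.3%, exact binomial 95% interval 20.2% to 24.4%), and 240 overlapped a peak of the R2 control list (15.1%, 13.4% to 17.0%). A total of 9 overlapped both lists and 1001 neither. Intervals cover counting error alone. The R2 active list is the longer one, with 53714 peaks over 7.42 Mb against 28418 peaks over 4.29 Mb. Read as a share of each list, 382 R2 active peaks (0.711%) and 248 R2 control peaks (0.873%) fell in intergenic opened regions, so the intergenic regions as a whole took no larger share of the active list. For opened promoter regions these shares were 1.73% and 0.429%, and for opened intronic regions 1.05% and 0.968%.

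The overlap followed the score. With the regions ranked by score and divided into 4 classes of equal size, 157 of the 396 regions in the highest class overlapped the R2 active list (39.6%, 34.8% to 44.7%) and 31 the R2 control list (7.83%, 5.38% to 10.9%). In the next class the shares were 23.0% and 14.6%, and in the one below it 15.2% and 19.2%. In the lowest class they were 11.3% (8.39% to 14.9%) and 18.9% (15.2% to 23.1%), so these regions overlapped the control list more often than the active list although they are listed as opened. By list, the highest class took 0.337% of R2 active and 0.116% of R2 control peaks, and the lowest took 0.0894% and 0.282%. Regions of the highest class were also wider, with a median of 1399.5 bases against 711 in the lowest, and the part of width in these overlaps was not tested. With peaks limited to a −log10 p of at least 3, 5.17% of regions overlapped the R2 active and 3.22% the R2 control list. Nearly all peaks of these lists are weak, with a q-value under 0.05 in 0.0652% of R2 active and 0.0246% of R2 control peaks.

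**Figure D2:**
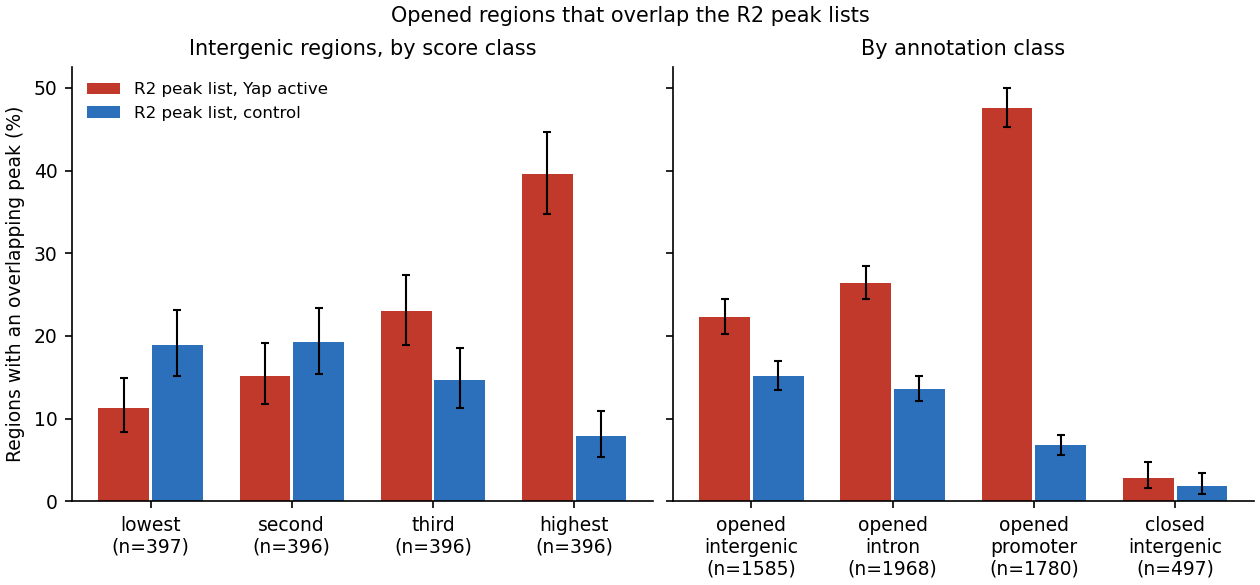
Share of regions (%) with at least 1 overlapping peak of the R2 Yap active list (red) or the R2 control list (blue), with exact binomial 95% intervals, for intergenic opened regions by score class (left) and for 4 annotation classes (right). The active share passes the control share in the upper 2 score classes and lies below it in the lower 2. The active list is the longer one (53714 against 28418 peaks), and these shares are not scaled to list length.

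Overlap also varied with distance. Regions centred 1 to 10 kb from a start overlapped the R2 active list in 26.3% of cases and the R2 control list in 12.6%. At 10 to 50 kb the shares were 24.2% and 12.8%, at 50 to 100 kb 20.1% and 15.7%, and at 100 to 500 kb 18.6% for both lists. Beyond 500 kb, 4 of 27 regions overlapped the active list and 10 of 27 the control list. These shares are not scaled to list length, and the active list is the longer one. The R1 lists, built from libraries that gave the opened list, held 1463 of the 1585 regions on the active side (92.3%) and 4 on the control side. These overlaps follow from how the list was made.

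A small share of the regions appeared in the lists of the Yap deleted line, and the overlap expected from random placement was not computed. Of the 1585 regions 13 (0.820%) overlapped a region opened after Yap deletion, which is 2.44% of the 532 regions of that list, and 29 (1.83%) overlapped a region closed after Yap deletion, 4.29% of its 676 regions. Among the 29 was the region 23.4 kb upstream of Jun at chr4:95074196-95077126, which holds the start of the lncRNA gene Junos, and others lay nearest Wnt2, Fgf9, Cited2 and Acsl3. Those nearest Thbs1 and Nes were among the 13. These 7 genes were picked from the 42 regions after they were seen.

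The 1585 regions had 1288 different nearest genes, of which 1059 were nearest to 1 region, 183 to 2, 27 to 3, 16 to 4 and 3 to 5. For 1271 regions the nearest gene was protein-coding and for 294 it was a non-coding RNA gene. An opened promoter region was listed for 132 of the nearest genes (10.2%), and an opened intronic region for 210. Fat1, Prdm1 and Tbl1xr1 each had 5 regions. Fat1 encodes a giant protocadherin that feeds into Hippo signalling, and its regions reached 493.7 kb upstream. The strongest, chr8:44933122-44938995, had a score of 217.7 at 14.2 kb, and the others, all farther upstream, had scores of 17.6 to 67.4. Prdm1 encodes the repressor Blimp-1, and its regions had scores of 130.2, 64.5, 50.7, 21.1 and 18.7. Tbl1xr1, a corepressor subunit, had 1 region with a score of 140.0 at 140.6 kb and 4 of 17.0 to 33.8.

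Jun, Tet2, Nr2f2, Kcnip4, Adamtsl1, Mir30a and 1700016G22Rik completed the 10 genes with most regions, with 4 each. Jun, an AP-1 subunit, had regions at 23.4, 30.8, 47.7 and 109.6 kb upstream with scores of 91.3, 32.2, 14.4 and 143.1, and 3 of the 4 overlapped the R2 active list. Tet2, which oxidises methylated cytosine, had regions at 56.8 to 332.6 kb upstream with scores of 35.8 to 72.1, of which 1 overlapped the R2 active list. Nr2f2 encodes an orphan nuclear receptor, and its regions lay 72.5 to 350.4 kb upstream with scores of 14.8 to 94.7.

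RNA of most of these genes was at moderate levels. Prdm1 lay at a lowest 6.63, median 8.79 and highest 17.3 CPM in Yap active libraries and at 10.1 to 15.3 CPM in controls, overlapping (log2 fold change −0.34 ± 0.26 SE, adjusted p = 0.447 by edgeR). Tbl1xr1 lay at 52.2 to 72.3 against 63.6 to 80.9 CPM (−0.26 ± 0.12) and Nr2f2 at 67.8 to 191 against 73.3 to 229 CPM (−0.63 ± 0.36). Adamtsl1 lay at 34.7 to 53.8 against 31.5 to 53.7 CPM, and Kcnip4 was low in all libraries, at 2.32 to 4.05 against 3.03 to 5.53 CPM (−0.65 ± 0.24, and −0.25 with the set of library profiles as a covariate).

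MicroRNA genes were the nearest gene of 65 regions (4.10%), counting 48 genes. Their share was 0.674% among opened promoter regions, 2.54% among opened intronic regions and 5.23% among closed intergenic regions, the last being the highest of the 4. RefSeq held 41 of the 48 genes with 59 mature products. MicroRNAs recognise targets mainly through the seed, bases 2 to 8, and 9 of the genes shared a seed with another of them. The mature forms of the shared seeds on the better known arm are printed here from RefSeq, GRCm38.p6, with the seed in capitals, because they show which genes fall into 1 targeting family.
miR-30a-5p: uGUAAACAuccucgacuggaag
miR-30c-5p: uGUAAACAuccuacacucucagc
miR-181a-5p: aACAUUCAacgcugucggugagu
miR-181b-5p: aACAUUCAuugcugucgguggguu
miR-181c-5p: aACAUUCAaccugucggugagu
miR-193a-3p: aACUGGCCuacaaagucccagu
miR-193b-3p: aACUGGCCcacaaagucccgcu
miR-221-3p: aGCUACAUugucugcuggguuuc
miR-222-3p: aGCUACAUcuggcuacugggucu
Mir30a had 4 regions, the strongest at chr1:23255490-23257556 with a score of 305.0 and 15.7 kb upstream, and Mir30c-2 had 1, with a score of 21.0 at 4.55 kb. A further relative by name, Mir30d, had 3 regions, the strongest with a score of 218.1 at 21.9 kb. The miR-181 seed was shared by Mir181a-1 (2 regions), Mir181b-1 and Mir181c (1 each), with scores up to 51.8. Mir193a and Mir193b had 1 region each, with scores of 65.8 and 84.1, and Mir221 and Mir222 had 1 and 2, with scores up to 115.2. Mir30a was at 0 counts in all 10 libraries of the table, which were made from polyadenylated RNA and do not measure mature microRNAs.

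Regions of a chromosome with gaps of at most 50 kb were joined. By this rule 1246 stayed single, 129 pairs formed, and 25 clusters of 3 or more regions held 81 regions (5.11%). The gathering expected from random placement was not computed, so these counts do not show whether regions gather more or less than that. In 13 of the 25 clusters all regions shared 1 nearest gene. The largest, chr7:63999028-64066346, spanned 67.3 kb and held 5 regions, 3 nearest Klf13 and 2 nearest Trpm1. Klf13 encodes a Krüppel-like factor and Trpm1 a cation channel. Their scores were 20.5 to 48.9, and the 3 regions nearest Klf13, at 60.6 to 83.0 kb upstream, all overlapped the R2 active list. Clusters of 4 lay near Prdm1 (102.5 kb), Asb13 and Calml3 (86.0 kb), Klrb1c and Klrb1b (85.0 kb) and Rhob (43.4 kb). In the Klrb1c and Klrb1b cluster, beside genes of natural killer cell receptors, all 4 regions overlapped the R2 active list and 3 of the 4 were centred in a CpG island. RNA of Klrb1c and Klrb1b lay at 0 to 0.152 CPM in the 10 libraries. No region of these 5 clusters overlapped the R2 control list.

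**Figure D3:**
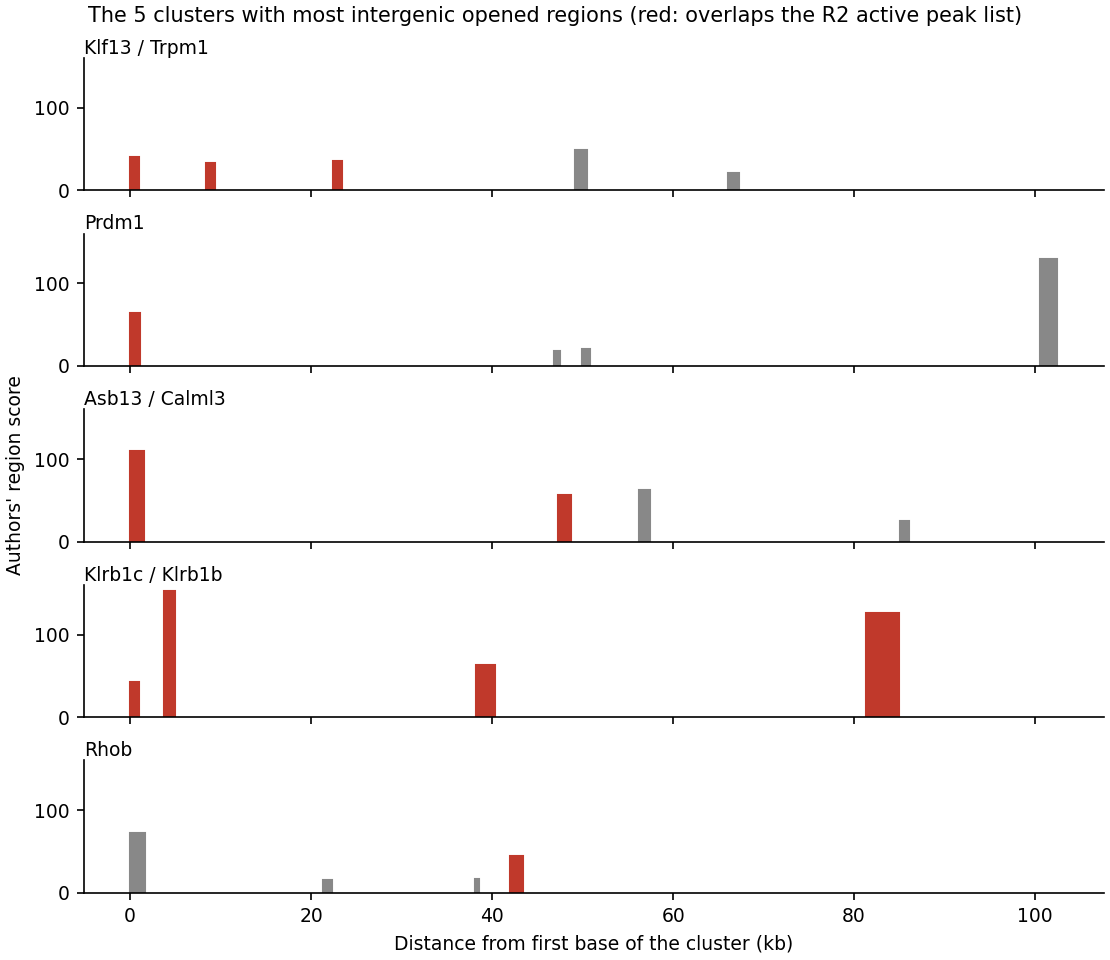
The 5 clusters with most intergenic opened regions, 1 panel each, with regions drawn as bars at their distance (kb) from the first base of the cluster, width to scale and height the authors' score (0 at the base, scale not stated). Red bars overlap the R2 active peak list: 3 of 5 at Klf13 and Trpm1, 1 of 4 at Prdm1, 2 of 4 at Asb13 and Calml3, 4 of 4 at Klrb1c and Klrb1b and 1 of 4 at Rhob.

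By chromosome, the regions were most frequent on chromosomes 3 (127), 1 (124) and 2 (109) and fewest on chromosome 19 (18). Chromosome 7 held 77 regions and 2030 protein-coding genes, and chromosome 3 held 127 regions and 983 such genes.

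RNA of the nearest genes was compared within each line by edgeR's quasi-likelihood test across all genes. Among the genes of the Yap active line, 0 of 15685 passed an adjusted p of 0.05 (0.0%), so no nearest gene did. At an unadjusted p under 0.05, 1043 genes were higher (6.65% of those tested) and 938 lower (5.98%). Of the 770 tested nearest genes within 100 kb, 34 were higher (4.42%) and 49 lower (6.36%). DESeq2 called 19 genes in the same table (0.129%), of which Slco4a1 and A430035B10Rik were nearest genes of intergenic regions. Without the libraries labelled active 1 and control 2, edgeR called 13 genes (0.0833%), among them the nearest gene Zmat3. Without control 4 as well, it called 7092 genes (44.3%), and 321 of 781 nearest genes within 100 kb (41.1%), 144 higher and 177 lower. That fit sets 5 active libraries against controls 1 and 3, so the groups are then the same as the 2 sets of profiles, and set and genotype cannot be told apart.

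More nearest genes were lower than higher in Yap active libraries, 426 against 344, with a median log2 fold change of −0.04 against −0.01 for all genes. Over the 932 tested nearest genes at any distance, 36 were higher (3.86%) and 69 lower (7.403%) at an unadjusted p under 0.05, with a median of −0.08. Over these 932 the median was −0.06 for genes nearest to 1 region, −0.13 for the 135 tested genes nearest to 2 and −0.18 for the 34 nearest to 3 or more, of which 23 were lower and 11 higher. By distance the medians were 0.04 for genes 1 to 10 kb from their region, −0.02 at 10 to 50 kb, −0.16 at 50 to 100 kb, −0.20 at 100 to 500 kb and −0.32 beyond. Genes of opened promoter regions had a median of −0.01 and those nearest to opened intronic regions −0.04. With the library set as a covariate the median of nearest genes within 100 kb was 0.0003, against 0.0007 for all genes. The medians by number of regions and by distance were taken without that covariate, and number and distance were not separated. With that covariate all 23 named genes at an unadjusted p under 0.05 had a smaller log2 fold change, 17 of them by over 1.5 times. These genes were picked for a small p without the covariate, and the set nearly coincides with genotype. Smaller values were thus likely beforehand and are no separate result. Bulk RNA cannot tell fewer cells of a type from less RNA per cell.

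**Figure D4:**
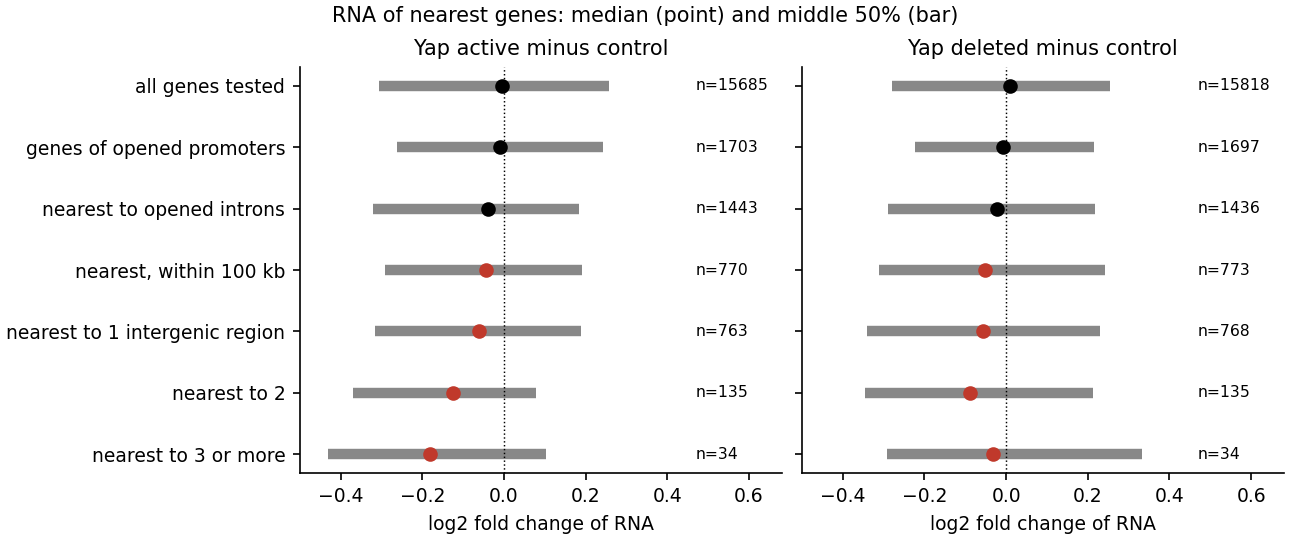
Median (point) and middle 50% (bar) of the log2 fold change of RNA against the controls for groups of genes, in the Yap active (left) and Yap deleted (right) tables, with the number of genes tested. In the Yap active table the medians go from −0.01 for all genes to −0.18 for genes nearest to 3 or more intergenic regions, and in the Yap deleted table the last group lies at −0.03. The library set was not a covariate in these fits.

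In the Yap deleted line, 1 of 15818 genes was called (0.00632%), Trim12a, which is no nearest gene of an intergenic region. DESeq2 called 792 genes (5.01%), and 34 of 773 nearest genes within 100 kb (4.40%), 11 higher and 23 lower, Zmat3 and Vwf among them. At an unadjusted p under 0.05, 970 genes were higher (6.13%) and 1452 lower (9.18%). Of 773 tested nearest genes within 100 kb, 43 were higher (5.56%) and 71 lower (9.18%), with a median of −0.05 against 0.01 for all genes. The controls of this line hold the endothelial and leukocyte markers given above, and controls 1 and 2 stand apart from the other 7 libraries (correlations of 0.466 to 0.737 between the sets and 0.77 to 0.927 within). The median was 0.01 with that set as a covariate, against 0.04 for all genes, and −0.02 against 0.01 without controls 1 and 2, and the part of the markers in it was not tested. Genes nearest to 3 or more regions had a median of −0.03 there. The difference between the lines was not tested.

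Several transcription factors of lung epithelium were nearest genes. Of a list of 34 such factors 12 (35.3%) were nearest to at least 1 region, where 5.94% of all tested genes were. They were Foxa1, Foxa2, Foxp2, Klf4, Klf5, Nfia, Nfic, Elf3, Id2, Irx1, Irx3 and Hopx, with 19 regions in all. The amount of intergenic sequence around these genes was not compared, and the list was chosen with earlier results known. All 12 were tested, 9 higher and 3 lower, with a median log2 fold change of 0.26, and none passed the adjusted threshold by edgeR with all libraries. At an unadjusted p under 0.05, 4 were higher and 1 lower, where 6.65% and 5.98% of all genes were. With the library set as a covariate 8 were higher and 4 lower, with a median of 0.10 and 1 at that p. Without the libraries labelled active 1 and control 2 the median was 0.48, and without control 4 as well 0.68. In the last of these fits set and genotype cannot be told apart.

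Foxa2 had 3 regions, at 6.33 kb (score 339.6) and 117.6 kb (32.3) downstream and 22.4 kb upstream (11.9), and the first 2 overlapped the R2 active list. Foxa2 lay at a lowest 126, median 218 and highest 260 CPM in the 6 Yap active libraries, and at 100, 150, 117 and 199 CPM in controls 1 to 4. The groups overlapped, with the low active value in the library labelled active 1 and the high control value in control 4. The log2 fold change was 0.56 ± 0.23 (SE, adjusted p = 0.366 by edgeR), 0.69 without the libraries labelled active 1 and control 2, and 0.11 with the library set as a covariate. Without control 4 as well as those 2 it was 1.05 (adjusted p = 0.000962 by edgeR). That fit called 44.3% of all genes, and in it set and genotype cannot be told apart. Foxa1, the paralog of Foxa2, had 2 regions, and lay at 175 to 281 CPM in Yap active libraries and 155 to 222 CPM in controls (0.26 ± 0.16).

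Elf3, an epithelial ETS factor, had 1 region 30.8 kb downstream with a score of 31.4 and also an opened promoter region. It lay at a lowest 65.2, median 79.6 and highest 88.3 CPM in Yap active libraries and at 38.1, 62.8, 37.0 and 67.0 CPM in controls. Control 4 was above the lowest active library and the other controls were below all of them. The log2 fold change was 0.61 ± 0.19 (SE, adjusted p = 0.366 by edgeR). Irx3, an Iroquois homeobox factor of the airway and alveolus, lay at 329 to 769 CPM against 339 to 486 CPM (0.58 ± 0.23, and 0.13 with the library set as a covariate) and had a single weak region (score 14.9).

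The NFI family and Klf5 are among the factors of alveolar states named above. Nfia had 2 regions, at 104.8 kb (score 96.4) and 53.3 kb (48.0) upstream, neither in an R2 list. Nfia lay at a lowest 91.2, median 106 and highest 158 CPM in Yap active libraries and at 172, 135, 173 and 129 CPM in controls, the highest active value being that of the library labelled active 1. Its log2 fold change was −0.45 ± 0.17 (SE, adjusted p = 0.366 by edgeR) −0.63 without the libraries labelled active 1 and control 2, and −0.18 with the library set as a covariate. Nfic had 1 region centred in a CpG island upstream, with a score of 118.5. Klf5 had 2 weak regions far downstream, at 347.6 kb (score 15.1) and 407.4 kb (27.2), and the first overlapped the R2 control list. Klf4, a related factor, had 2 regions far upstream, with scores of 32.4 and 17.9.

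Id2, an inhibitor of helix-loop-helix factors that marks distal lung progenitors, carried the fifth highest score. It lay at a lowest 179, median 251 and highest 370 CPM in Yap active libraries and at 187, 293, 211 and 175 CPM in controls. The groups overlapped, with 3 active libraries above all controls and 3 within their range (0.26 ± 0.25 SE, adjusted p = 0.548 by edgeR). In the Yap deleted line it lay at 355, 293, 229, 262 and 174 CPM against 176, 148, 176 and 195 CPM in controls (log2 fold change 0.59 ± 0.20, adjusted p = 0.263).

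**Figure D5:**
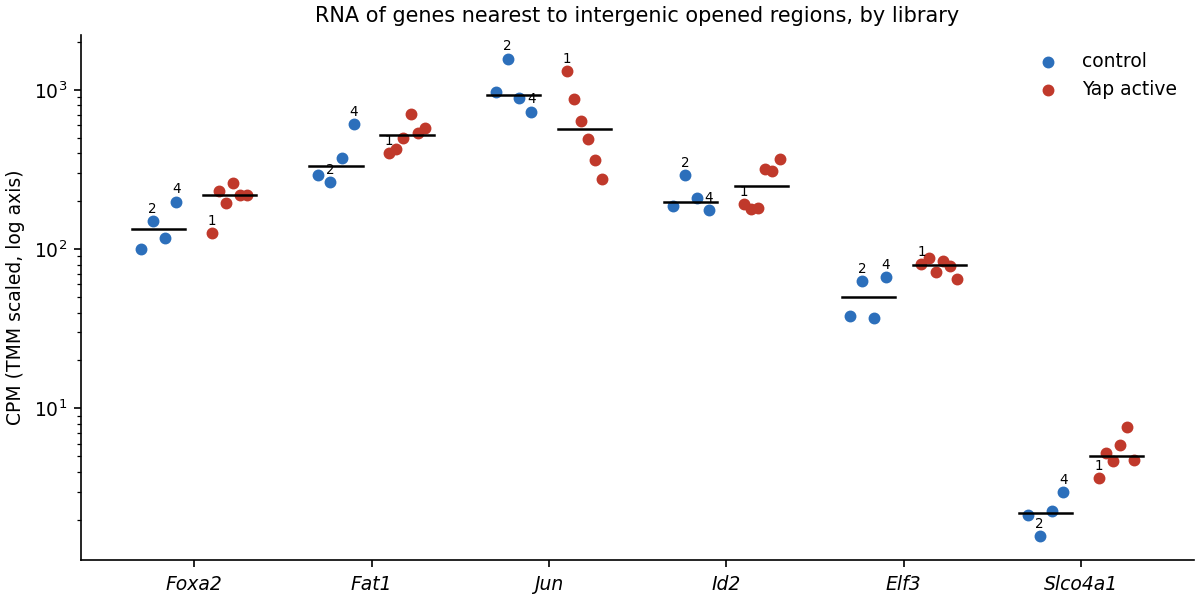
RNA of 6 genes nearest to intergenic opened regions in each library of the Yap active table (CPM, TMM scaled, log axis), with controls in blue, Yap active libraries in red and the group median as a bar. Numbers mark active library 1 and control libraries 2 and 4. All Slco4a1 values of the active group (3.64 to 7.603 CPM) lie above the controls, and the groups overlap for the other 5 genes.

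Of 27 Hippo and TEAD genes 6 (22.2%) were nearest to a region, with 10 regions in all, where 5.94% of all tested genes were. For this list and those that follow, the amount of intergenic sequence around the genes was not compared. Stk3 itself had 1, 27.8 kb upstream in an ERVK element, with a score of 41.2. Amot, which encodes a Yap-binding scaffold, had a region with a score of 189.5 at 17.9 kb, and Mob1b, a kinase cofactor, 1 of 67.7 at 9.61 kb. Vgll4 and the protocadherin gene Fat4 had 1 each and Fat1 had 5. Fat1 lay at a lowest 401, median 520 and highest 703 CPM in Yap active libraries and at 293, 264, 373 and 608 CPM in controls. Control 4 lay among the active libraries and the other 3 controls below them (log2 fold change 0.45 ± 0.25 SE, adjusted p = 0.369 by edgeR). Amot lay at 5.56 to 11.8 against 5.81 to 12.0 CPM.

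Of 25 Yap and TEAD target genes 3 (12.0%) were nearest to a region, all within 100 kb, against 5.94% of all tested genes at any distance. The region at Cyr61 (Ccn1), chr3:145649356-145654144, had a score of 155.9, overlapped neither R2 list and covers the window printed above. Among the genes printed above with a TEAD core, only the region of Crb3 and Slc25a23 overlapped the R2 active list. Ctgf, the other matricellular target, had a region 60.2 kb upstream with a score of 64.3 that overlapped neither R2 list. Nt5e, the ectonucleotidase CD73, had 1 at 85.5 kb with a score of 52.5 that overlapped the R2 active list. Cyr61 lay at a lowest 75.7, median 101 and highest 330 CPM in Yap active libraries and at 183, 160, 151 and 100.4 CPM in controls. Ctgf lay at a lowest 163, median 182 and highest 456 CPM against 233, 302, 201 and 252 CPM. For both genes the highest value was that of the library labelled active 1, and the other 5 active libraries lay below the median of the controls. The log2 fold changes were −0.13 ± 0.40 and −0.10 ± 0.30 (SE, adjusted p = 0.856 and 0.847 by edgeR).

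Of the AP-1 list of 12 genes, Jun and Atf3 (16.7%) were nearest to regions, with 4 and 2, where 5.94% of all tested genes were nearest to a region. Jun lay at a lowest 276, median 565 and highest 1317 CPM in Yap active libraries and at 972, 1575, 896 and 732 CPM in controls, overlapping widely (−0.66 ± 0.41 SE, adjusted p = 0.387 by edgeR). Of 42 signalling ligands and receptors 7 were nearest to a region (16.7%): Fzd1, Axin2, Bmp2, Tgfbr2, Fgf9, Fgfr3 and Jag1, with 11 regions, 1 gene higher and 6 lower and none at an unadjusted p under 0.05.

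The lists of genes of cell types and of cell division were short, and 5.94% of all tested genes were nearest to a region. Of 28 AT1 genes 5 (17.9%) were nearest to a region, namely Hopx, Clic5, Cldn18, Sema3e and Hs2st1, and the strongest score among their regions was 28.2. Cldn18, a claudin of the alveolar barrier, lay at 1624 to 2279 CPM in Yap active libraries and 1379 to 2224 CPM in controls. Of 28 AT2 genes 2 (7.14%) were nearest, Lpcat1 and Acsl4, both enzymes of lipid handling. Of 24 cell division genes Mki67 and Cdk1 were nearest (8.33%), and of 18 airway genes Cyp2f2, Ccdc39 and Dnah5 (16.7%). Of 16 endothelial genes Vwf was nearest (6.25%), of 18 mesenchymal genes Col1a2 and Tcf21 (11.1%), and of 17 leukocyte genes 0. Cyp2f2, a club cell enzyme, lay at 536 to 2074 CPM in Yap active libraries and 542 to 1206 CPM in controls (0.96 before and 0.17 after the library set entered as a covariate). Airway markers summed to 4328 to 16180 CPM in the active and 2975 to 9322 CPM in the control libraries, and their part in these values was not tested.

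Among nearest genes within 100 kb the smallest p-values on the higher side belonged to Slco4a1, Zmat3, Vnn3, Rnf19b, Ptgs1, Elf3, Hp and Homer2. Slco4a1, an organic anion transporter gene, lay at a lowest 3.64, median 4.99 and highest 7.603 CPM in Yap active libraries and at 2.13, 1.57, 2.26 and 2.97 CPM in controls. The groups did not overlap (log2 fold change 1.24 ± 0.26 SE, adjusted p = 0.366 by edgeR and 0.0145 by DESeq2). Slco4a1 was picked for a small p in this same comparison, so the lack of overlap adds no separate support. The share of all genes without overlap is not given here. Its region, chr2:180455598-180456841, held a RefSeq start of the gene 26 bases from its centre. Zmat3, a p53-induced RNA-binding protein gene, lay at a lowest 38.8, median 98.1 and highest 113 CPM against 37.8, 60.2, 39.0 and 36.3 CPM. Its low active value was that of the library labelled active 1 and its high control value that of control 2, and without them its log2 fold change was 1.34 (adjusted p = 0.0385 by edgeR) against 0.99 ± 0.29 with them. With the library set as a covariate it was 0.61. After Yap deletion Zmat3 lay at 85.7 to 121 CPM against 31.7 to 70.4 CPM, without overlap, at a log2 fold change of 1.15 ± 0.23 (adjusted p = 0.247 by edgeR and 0.000994 by DESeq2). The region listed for Zmat3 is the one at the start of Pik3ca.

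Ptgs1, which encodes cyclooxygenase-1, lay at a lowest 241, median 270 and highest 285 CPM in Yap active libraries and at 136, 134, 128 and 268 CPM in controls. Control 4 lay among the active libraries, and without it the log2 fold change was 1.01 (adjusted p = 0.0191 by edgeR) against 0.67 ± 0.21. It was 0.41 with the library set as a covariate, and 0.01 when active 1 and control 2 were also left out. That last fit compares the remaining active libraries with control 4 alone. Its value thus rests on 1 control library and cannot show whether the difference goes away with the covariate. Hp, the haptoglobin gene, lay at 789 to 1270 CPM against 288, 531, 386 and 989 CPM, again with control 4 within the active range (0.95 ± 0.31, and 0.55 with the library set as a covariate). Vnn3 lay at 22.4 to 60.4 against 13.4 to 25.4 CPM and Rnf19b at 84.6 to 133 against 60.5 to 93.7 CPM (0.55 ± 0.17, and 0.30 with that covariate).

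On the lower side were A430035B10Rik, Tet2, Ddx26b, Mysm1, Pik3r1, Isoc1, Klhl13 and 2010315B03Rik. Tet2 lay at a lowest 41.8, median 47.1 and highest 61.0 CPM in Yap active libraries and at 69.0, 64.8, 74.6 and 62.6 CPM in controls. The groups did not overlap (−0.45 ± 0.13 SE, adjusted p = 0.366 by edgeR), in a gene likewise picked for a small p in this comparison. Pik3r1, the regulatory subunit of the kinase whose catalytic subunit is Pik3ca, had 3 regions at 77.8 to 148.0 kb upstream with scores of 25.4 to 48.5, and lay at 95.5 to 144 CPM against 124 to 174 CPM (−0.48, and −0.22 with the library set as a covariate). A430035B10Rik, an RNA of low level at 3.58 to 4.55 against 4.49 to 7.91 CPM, had a log2 fold change of −0.78 and passed DESeq2's adjusted threshold (0.0449).

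For the nearest genes of the strongest regions, Zbtb18 lay at 49.5 to 67.0 CPM in Yap active libraries and at 49.2 to 56.1 CPM in controls (log2 fold change 0.14 ± 0.11 SE), and Tnks1bp1 at 276 to 390 and 300 to 353 CPM (0.07 ± 0.12). Pcmtd1 lay at a lowest 44.4, median 48.6 and highest 88.9 CPM against 91.3, 123, 104 and 54.1 CPM, with the library labelled active 1 within the control range and control 4 next to the active libraries (−0.77 ± 0.25, −0.22 with the library set as a covariate). Nr4a3, an early-response receptor gene, lay at 1.33 to 5.61 against 1.07 to 7.37 CPM, and Igsf8 at 48.0 to 89.0 against 42.2 to 83.3 CPM. Snap25 was at most 0.821 CPM, and 4930444G20Rik was at 0 in all 10 libraries. For these 10 strongest regions no nearest gene passed the adjusted threshold by edgeR with all libraries in either line. Klf13 and Rhob, of the clusters, lay at 203 to 286 against 213 to 387 CPM and at 280 to 422 against 347 to 429 CPM.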

How the data were processed

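Epcam+ mouse lung cells were profiled by ATAC-seq and RNA-seq. Build mm10 and the tools Bowtie2, HOMER, DESeq, Cufflinks and Trim Galore are listed, per the submitters' processing notes, and the role and version of each are not given in the sources used here. The authors deposited gene counts, 1 table per line. Per the file headers, the region lists hold HOMER annotations with a score of unstated scale, and the peak lists hold the authors' fold over background, −log10 p and −log10 q in the broad-peak columns of MACS. RNA libraries held 34979553 to 43544559 counts in the Yap active table and 31947748 to 42924739 counts in the Yap deleted table, and the ATAC files give no read depth.

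Counts were filtered (filterByExpr), scaled by TMM and tested with edgeR 4.0.16 in R 4.3.3, two-sided, with Benjamini-Hochberg adjustment over all genes and a threshold of 0.05. On simulated counts, edgeR was checked with 200 changed genes per table. Overlaps were counted in Python 3.11.15 at 1 base or more, as a description. Nearest genes are those of the authors' annotation, and 1228 of 1288 matched the count table, 39 by an alias. Named genes were those of the 10 highest scores, the 10 with most regions, the 5 largest clusters, genes of 12 lists, and the 8 smallest p-values per direction within 100 kb at 1 CPM or more, with the targeted genes as checks. Members and lists were chosen with earlier results of these data known. Per-sample columns left unused numbered 0. A search of whole regions for motifs needs a genome, which was not used here. Alternatives were RLE scaling, no count filter, DESeq2 1.42.0, each library left out, a replicate block, other distance, gap and overlap limits and a restriction to the upper 50% of regions by score. Added once the data had been seen were the library set as a covariate, the Yap active fit without active 1, control 2 and control 4, the Yap deleted fit without controls 1 and 2, and peaks of −log10 p of at least 3.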

Additional observations from a re-analysis of the deposited data

Results flagged for a closer look

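The levels of 36 nearest genes and targeted genes were searched for a library standing apart from its group, over 144 groups, of which chance alone would flag about 7.20. In the Yap active table the library labelled active 1 stood apart from the other 5 for Pcmtd1 (88.9 CPM against 44.4 to 51.8), Cyr61 (330 CPM against 75.7 to 124), Ctgf (456 CPM against 163 to 234), Stk3 (49.5 CPM against 30.6 to 35.4), Nfia (158 CPM against 91.2 to 116) and Vwf (14.9 CPM against 1.14 to 5.67).

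Control 4 stood apart from the other controls for Ptgs1 (268 CPM against 128 to 136) and Cyp2f2 (1206 CPM against 542 to 602), and control 2 for Zmat3 (60.2 CPM against 36.3 to 39.0). Active 6 was high for Cdk1 (53.8 CPM against 9.43 to 24.7) and Mki67 (256 CPM against 101 to 141), and active 4 for Prdm1 (17.3 CPM against 6.63 to 10.2).

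In the Yap deleted table control 2 was high for Nr4a3 (7.73 CPM against 0.594 to 1.23) and deleted 1 for Hopx (626 CPM against 170 to 259). Mki67, nearest to 1 intergenic region, lay above the control mean in all 6 Yap active libraries and below it in all 5 Yap deleted libraries. The groups overlapped in both lines, at 101 to 256 against 10.9 to 224 CPM and at 5.54 to 47.1 against 9.93 to 122 CPM. Its log2 fold changes were 0.63 ± 0.62 and −1.27 ± 0.78 (SE, adjusted p = 0.545 and 0.448 by edgeR). The difference of 1.90 between the lines was not tested.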

How the results depend on the processing

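Called genes in the Yap active table numbered 0 under RLE scaling, no count filter, the replicate block and the library set as a covariate. They numbered 19 by DESeq2, 13 without the libraries labelled active 1 and control 2, and 7092 without control 4 as well. Adding the covariate to the fit without active 1 and control 2 compares the remaining active libraries with control 4 alone. No count is given for that fit. With each library left out, called genes numbered 0 to 2 (2 without active 1, 1110008F13Rik and Aen, and 2 without control 4, Il4ra and Ptgs1). In the Yap deleted table they numbered 792 by DESeq2, 0 with the replicate block and 0 to 4 with each library left out (4 without control 4: Elf4, Klk14, Sema3f and Trim12a). Same-numbered Yap active and control libraries correlated at 0.523, 0.00905, 0.0512 and 0.494 in their deviations from the group means and Yap deleted ones at −0.255, 0.445, 0.259 and 0.29, and not every library correlated best with its own number, so the numbers were not taken as a pairing. The replicate block changed no other call.

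The median of nearest genes within 100 kb stayed within 1 SD of the library medians (0.0601, n = 6) in the Yap active table under all alternatives. That SD is larger than the size of the main median (−0.0445), so this check cannot tell the main median from no shift. With the library set as a covariate the median was 0.0003. In the Yap deleted table, where that SD is 0.0121 (n = 5), it was −0.078 by RLE scaling, −0.079 by DESeq2, −0.037 with the replicate block, 0.014 with the library set as a covariate, −0.018 without controls 1 and 2, −0.019 at 50 kb, −0.035 for the higher-scoring 50% of regions and −0.095 to −0.0061 with each library left out.

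An overlap of 50% of the region left 0.505% of regions in the R2 active and 4.29% in the R1 active list, and a −log10 q of at least 5 left 0.0% in each, since peaks are short and weak. A −log10 p of at least 3 left 5.17% and 57.6%. The higher-scoring 50% of regions had 31.3% and 98.1%. Clusters numbered 10 at gaps of 25 kb, 54 at 100 kb and 5 among the higher-scoring 50%.

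Of 23 single genes at an unadjusted p under 0.05, 22 kept their direction in all alternatives, and all 23 passed the adjusted threshold without active 1, control 2 and control 4, where the groups are the same as the 2 sets of profiles. Isoc1 turned to 0.027 without the libraries labelled active 1 and control 2 and with the library set as a covariate. That fit compares the remaining active libraries with control 4 alone, so the turn rests on 1 control library. The cause of these shifts was not tested. The planned counts of TEAD cores over regions, with 200 bases, whole regions or the higher-scoring 50%, were not run.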
